A study of Caenorhabditis elegans with 2 samples.

Results

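The genes described here are 8 members of the germ granule and oocyte RNA-binding machinery of Caenorhabditis elegans: pgl-1, pgl-3, glh-1, glh-2, oma-1, oma-2, cgh-1 and car-1. They were chosen by name, with earlier results of these data known, and they are 8 of the 19973 protein-coding genes of the annotation. The question asked of each gene was whether the tagged protein Y56A3A.18, annotated as znf-593, was bound at its start. A gene's start window ran from 1000 bp upstream to 500 bp downstream of its 5′ end, and a peak counted when its summit, the peak's highest point, fell in that window.

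Chromatin immunoprecipitation and sequencing (ChIP-seq) with an antibody against GFP was done on whole young adult worms of strain RW12265, aged 63 h, in 2 biological replicates that form the only group. In all of these worms Y56A3A.18 carried a TY1::EGFP::3xFLAG tag, placed at the gene by CRISPR editing, and the worms had been synchronised by starving L1 larvae after bleaching. A control experiment was not analysed here, and with 1 group no condition could be tested against another. The strain is 1 edited line, and in chromatin of whole animals binding in the germ line and binding in the soma cannot be told apart.

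P granules are ribonucleoprotein condensates that gather at the nuclear envelope of germ cells and are passed to the germ-line precursors of the embryo. PGL-1 and PGL-3 are their self-assembling scaffold proteins, and GLH-1 and GLH-2 are DEAD-box helicases related to fly Vasa. OMA-1 and OMA-2 are zinc finger RNA-binding proteins that act redundantly in oocyte maturation. CGH-1, a DEAD-box helicase related to human DDX6, and CAR-1, an Sm-domain protein, sit together in oocyte particles that hold maternal mRNA in store. The assay measured protein on DNA at the genes for these proteins; RNA was not measured.

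Of the 8 genes 3 had a start-window summit in the conservative list, the list of peaks found reproducibly between the replicates. Each of those summits lay upstream of its gene. Each also lay past the 3′ end of the upstream gene on the same strand, by 65 bp (pgl-3), 233 bp (oma-2) and 142 bp (cgh-1). That end was nearer than the member's own start, at 461, 417 and 774 bp. Whether these peaks belong to the start or to the upstream gene's 3′ end was not tested. To show where the tagged protein was found, each summit is given with the 50 bases on either side of it, on the gene's own strand, 5′ to 3′, from the RefSeq WBcel235 genome, with each CG dinucleotide in capitals. The pgl-3 window is chrV:4755468-4755568 on the + strand, the oma-2 window is chrV:8028972-8029072 on the + strand, and the cgh-1 window is chrIII:7498556-7498656 on the - strand.
pgl-3: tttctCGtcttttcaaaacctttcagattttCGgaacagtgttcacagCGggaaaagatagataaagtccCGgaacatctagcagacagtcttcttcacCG
oma-2: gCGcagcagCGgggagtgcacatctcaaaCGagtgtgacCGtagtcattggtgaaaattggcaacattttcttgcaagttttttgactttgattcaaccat
cgh-1: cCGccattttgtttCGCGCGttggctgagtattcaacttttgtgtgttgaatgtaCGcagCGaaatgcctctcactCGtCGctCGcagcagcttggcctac

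The cgh-1 window had a GC content of 52.5% and 9 CG dinucleotides. The oma-2 window had 44.6% and 4, and the pgl-3 window 42.6% and 5, against medians of 45.5% and 5 over the summit windows of all 1687 conservative peaks. Hexamers picked in an earlier look at these data were searched on both strands: AGACGC, its neighbour one base along, GACGCA, and the neighbour one base further, ACGCAG. Of the 3 windows, the cgh-1 window alone held one, ACGCAG, and 18.3% of all conservative summit windows held at least 1 of the hexamers. These matches describe the letters only.

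The conservative list held a start-window summit for 3 of the 8 genes, 37.5%, against 3.89% of all protein-coding genes. A second thresholded list of both replicates also held 3, namely pgl-3, glh-1 and oma-2, against 4.01% of all genes. In the thresholded lists made from a single replicate, pgl-3 alone had a start-window summit in that of replicate 1, where the share of all genes was 2.00%. None of the 8 had one in that of replicate 2, where the share was 1.85%. The count of 3 therefore rests on lists that use both replicates.

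The 3 peaks were weak ones within the conservative list. By signal, the authors' value for the strength of a peak, pgl-3 ranked 1035 of 1687 peaks, cgh-1 1319 and oma-2 1445. Their pooled signals of 65.8, 57.1 and 51.2 lay below the list's median of 71.9 and below the median of 75.7 over the 777 genes with a conservative summit.

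The ranked lists also hold peaks below the reproducibility threshold and so give a graded value for each gene with a summit there. A ranked list can lack a peak that another list holds. At pgl-1 the between-replicate list gave paired values of 10.9 and 16.9, though replicate 1's own list held no summit. The gene prg-1 had none in the between-replicate list but 14.8 in replicate 2's own list. An absent summit therefore does not mean that no peak was found. In the between-replicate ranked list all 8 genes had a start-window summit, as did 71.0% of all genes. In replicate 1's own ranked list 6 of the 8 had one, pgl-1 and glh-2 being without, against 52.8% of all genes. In that of replicate 2 all 8 had one, against 54.7% of all genes. A ranked summit was thus common among genes.

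The strength of the strongest ranked summit set the genes further apart. The median pooled signal was 47.5 over the 8 genes, with a range of 18.1 to 65.8, against 20.1 over all protein-coding genes, where a gene with no ranked summit counted as 0. Over the genes that had a ranked summit the median was 26.2. Of the 8, 7 lay above the median of all genes, and glh-2 lay below it. With each summit given to the nearest protein-coding start alone, pgl-1 had 9.10 in place of 27.1 and was the gene below the median, then 17.8, while glh-2 at 18.1 lay above it. In the replicates' own lists the medians of the 8 were 25.8 in replicate 1 and 21.1 in replicate 2, against 9.05 and 8.24 over all genes in those lists. Pooled signals come from lists of both replicates together. At the strongest start-window summit of each of the 8 genes the pooled signal was above both replicate values, while at some other summits it was below them, so values are compared within a list.

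**Figure D1:**
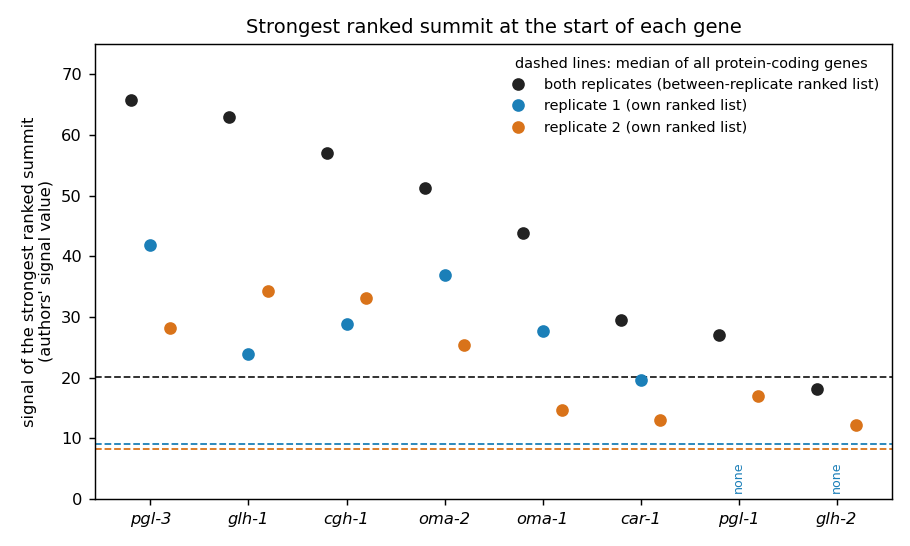
Signal of the strongest start-window summit of each gene in the between-replicate ranked list and in each replicate's own ranked list, with dashed lines at the medians of all protein-coding genes. The pooled signal runs from 65.8 at pgl-3 to 18.1 at glh-2, which alone lies below the pooled median of 20.1, and pgl-1 and glh-2 have no summit in replicate 1's list.

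Among the P granule scaffold genes, pgl-3 (WBGene00003994, chrV:4755979-4758587, + strand) had the highest pooled signal of the 8, 65.8, at the 97.1 percentile of all protein-coding genes. Its summit lay 461 bp upstream of the 5′ end, between genes, 65 bp past the end of hil-4, a linker histone gene on the same strand. The signal at this peak was 41.9 in replicate 1 and 28.1 in replicate 2 (35.0 ± 9.71, SD, n = 2). The pgl-3 gene was the only one of the 8 with a start-window summit in a single-replicate thresholded list.

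Its paralog pgl-1 (WBGene00003992, chrIV:6974441-6977318, - strand) had a pooled signal of 27.1, at the 66.7 percentile. That summit lay 476 bp upstream, inside a coding exon of him-3, a meiotic chromosome axis gene that starts 190 bp away on the other strand, and it also fell in the start window of him-3. Replicate 2's list held it at 16.9 and replicate 1's list held no summit in the window. The paired replicate values of that peak in the between-replicate list averaged 13.9 ± 4.23 (SD, n = 2), against 35.0 ± 9.71 for pgl-3, and the ranges of the paralogs did not overlap. For comparison with the pgl-3 window above, the pgl-1 summit window is chrIV:6977744-6977844 on the - strand.
pgl-1: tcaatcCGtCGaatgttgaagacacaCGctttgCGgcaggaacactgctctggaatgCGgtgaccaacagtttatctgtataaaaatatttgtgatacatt

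The pgl-1 window, with a GC content of 41.6% and 5 CG dinucleotides, was close to the pgl-3 window by these measures, while its pooled signal was less than that of pgl-3.

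The helicase genes also differed. The glh-1 gene (WBGene00001598, chrI:6854478-6857536, + strand) had a pooled signal of 62.9, at the 96.8 percentile, with its summit 80 bp downstream of the 5′ end in the annotated 5′ UTR. The signal was 23.9 in replicate 1 and 34.2 in replicate 2 (29.0 ± 7.34, SD, n = 2). It missed the conservative list by its −log10 IDR (irreproducible discovery rate) of 1.84 against the threshold of 2, and passed in the second list of both replicates at 2.11. The sequence under this peak is repeated: of the 66 stretches of 36 bases within 50 bases of the summit none was unique in the genome. Each was found at 5 to 18 places, and the copies outside this window lay on 4 chromosomes in all. In the corresponding windows of the other 7 genes all 66 stretches were unique. The part of the repeated sequence in the glh-1 signal was not tested.

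The glh-2 gene (WBGene00001599, chrI:6513928-6517507, + strand) had the lowest pooled signal of the 8, 18.1, at the 45.4 percentile. Its summit lay 11 bp upstream of the 5′ end, between genes, and fell also in the start window of C55B7.11, a divergent gene. Replicate 2's list held it at 12.2 and replicate 1's list held no summit there, and the paired values averaged 8.54 ± 5.17 (SD, n = 2). The nearest conservative summits lay 7256 bp upstream of the glh-1 start and 15168 bp upstream of the glh-2 start.

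Of the oocyte maturation genes, oma-2 (WBGene00003865, chrV:8029439-8031214, + strand) had a conservative summit and oma-1 did not. The oma-2 summit lay 417 bp upstream, between genes, 233 bp past the end of F43H9.4, with a pooled signal of 51.2 at the 94.2 percentile. Its signal was 37.0 in replicate 1 and 25.4 in replicate 2 (31.2 ± 8.20, SD, n = 2). The oma-1 gene (WBGene00003864, chrIV:8888976-8890999, + strand) had a pooled signal of 43.8 at the 90.3 percentile, from a summit 243 bp downstream of its start, in its own coding exon. The signal there was 27.8 in replicate 1 and 14.7 in replicate 2 (21.2 ± 9.22, SD, n = 2). The ranges of the paralogs over the replicates overlapped, but within each replicate oma-2 was higher than oma-1.

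In the between-replicate ranked list the summits in the oma-1 start window lay 243 and 451 bp downstream, and none lay upstream of its start. The contrast in place is shown by the oma-1 summit window, chrIV:8889169-8889269 on the + strand, and by the 250 bases before the oma-1 start, chrIV:8888726-8888975 on the + strand, where the between-replicate ranked list had no summit.
oma-1: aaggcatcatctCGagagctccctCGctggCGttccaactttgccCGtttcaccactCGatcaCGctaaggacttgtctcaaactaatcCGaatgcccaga
oma-1: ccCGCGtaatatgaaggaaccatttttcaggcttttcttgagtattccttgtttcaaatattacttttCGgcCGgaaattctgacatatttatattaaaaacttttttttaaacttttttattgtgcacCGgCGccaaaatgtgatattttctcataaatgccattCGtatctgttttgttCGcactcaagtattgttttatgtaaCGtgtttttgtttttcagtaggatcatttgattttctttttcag

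The oma-1 summit window had a GC content of 52.5% and 7 CG dinucleotides. The nearest conservative summit to the oma-1 start lay 22464 bp upstream, the farthest among the 8 genes.

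The cgh-1 and car-1 genes encode partners in one particle. The cgh-1 gene (WBGene00000479, chrIII:7495320-7497832, - strand) had its strongest start-window summit 774 bp upstream. It lay between genes, 142 bp past the 3′ end of C07H6.9 on the same strand, with a pooled signal of 57.1 at the 95.9 percentile. The signal was 28.9 in replicate 1 and 33.1 in replicate 2 (31.0 ± 2.98, SD, n = 2), the closest replicate values among the 3 genes in the conservative list. In the second list of both replicates the peak was below the threshold. A further ranked summit lay 39 bp upstream of the cgh-1 start with a pooled signal of 41.1.

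For car-1 (WBGene00012484, chrI:12904470-12906040, + strand) the strongest start-window summit had a pooled signal of 29.4, at the 71.8 percentile, and lay 369 bp upstream, in a stretch shared with the start window of coa-5 on the other strand. The signal of this peak was 19.6 in replicate 1 and 11.2 in replicate 2 (15.4 ± 5.93, SD, n = 2). In replicate 2's own list the summit in the car-1 window was another one, 12 bp downstream of the start, with a signal of 13.1.

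Ordered by pooled signal, the genes ran pgl-3, glh-1, cgh-1, oma-2, oma-1, car-1, pgl-1 and glh-2. By replicate mean, oma-2, cgh-1 and glh-1 came after pgl-3 in that order, with 31.2, 31.0 and 29.0, and the other genes kept their places. Between neighbours in the order by pooled signal, the difference in replicate mean exceeded the pooled SD in 2 of 7 cases. These were oma-2 over oma-1, by 9.94 against a pooled SD of 8.72, and pgl-1 over glh-2, by 5.39 against 4.72. In the order by replicate mean, oma-2 and oma-1 were not neighbours. For the other 5 pairs of neighbours the difference did not exceed the pooled SD. That SD also holds any shift between the replicates that the genes share. In the paired values of each replicate, oma-2 was above oma-1, oma-1 above car-1 and pgl-1 above glh-2. In the remaining pairs the order differed between the replicates.

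**Figure D2:**
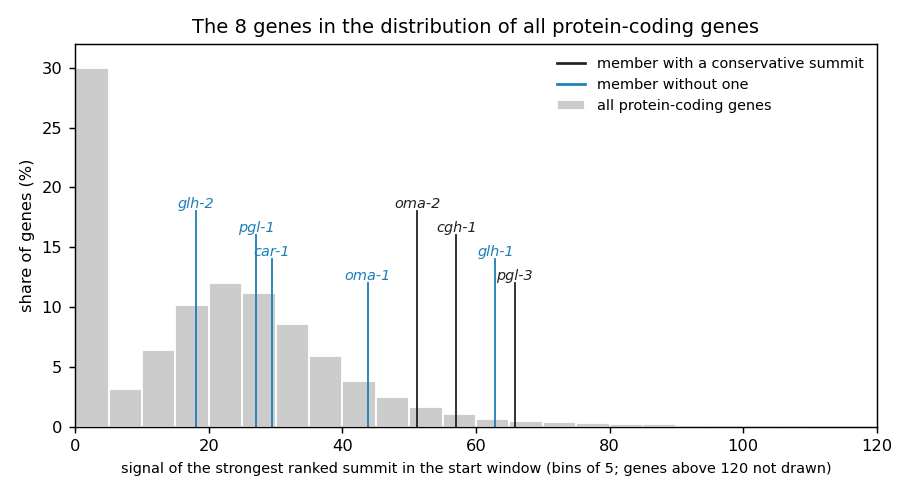
Share of all protein-coding genes by the pooled signal of their strongest start-window ranked summit, in bins of 5, with a line at the value of each of the 8 genes. Genes with no ranked summit stand in the first bin, and 100 genes at 120 or above are not drawn. The 3 genes with a conservative start-window summit (pgl-3, cgh-1 and oma-2) lie in the upper tail beside glh-1, which has none.

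For the 3 genes in the conservative list, the most alike gene was taken as the one, among the 776 other genes with a conservative summit, whose pair of replicate log2 signals lay nearest. For pgl-3 it was try-3, with 41.4 and 27.8 in the replicates, at a distance of 0.02 on the log2 scale. For oma-2 it was Y71H2AM.20 with 36.6 and 25.6, and for cgh-1 it was aex-1 with 28.6 and 32.7, both also at 0.02. With 2 replicates such likeness is common: 12, 21 and 17 genes lay within 0.1 of pgl-3, oma-2 and cgh-1.

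Promoters were taken as 250 bases before to 50 after the annotated 5′ end. Whether that end is where transcription starts was not tested. In these stretches 0 of the 8 genes held any of the 3 hexamers, against 15.3% of all protein-coding genes. The 8 promoters held 12 to 26 CG dinucleotides, the most at glh-1, and each exceeded the median of 9 over all promoters. More than 9 were present in 43.5% of all promoters.

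The remaining germ-line RNA machinery was read from 3 lists of related genes. Of 22 further germ granule genes, 1 (4.55%) had a conservative start-window summit, close to the 3.89% of all protein-coding genes. It was ego-1, an RNA-dependent RNA polymerase gene, with a pooled signal of 151 at 422 bp upstream. Its replicate values were 75.1 and 60.7 (67.9 ± 10.2, SD, n = 2). The list's median pooled signal was 24.0, and 16 of its 22 genes lay above the median of all genes. The remaining members of the PGL and GLH families had no conservative summit, with pooled signals of 31.7 at pgl-2, 13.1 at glh-3 and 21.3 at glh-4.

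Of 29 genes of germline translation control, such as the gld, fbf, puf, mex and nos genes, 0 had a conservative start-window summit, against 3.89% of all protein-coding genes. Their median pooled signal was 22.0, with 16 of 29 above the median of all genes and a highest value of 50.7 at spn-4. Of 24 genes of P bodies and mRNA decay, 2 (8.33%) had one, against the same 3.89%. The ifet-1 gene, whose protein is the worm relative of the eIF4E transporter, had 180 at 536 bp upstream, with replicate values of 111 and 66.8 (88.9 ± 31.3, SD, n = 2). That summit also fell in the start window of rps-1, a ribosomal protein gene, and lay within 200 bp of the noncoding genes F56F3.10 and F56F3.11. The ntl-2 gene, for a CCR4-NOT subunit, had 107 at 430 bp upstream, with 63.3 and 31.1 in the replicates (47.2 ± 22.8, SD, n = 2). The median of this list was 30.7, with 18 of 24 above the median of all genes, so its median also lay below the 47.5 of the 8 genes.

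Summits were also present past the other end of these genes. This was looked at after the values had been seen, from the 3′ end to 500 bp downstream of it. A conservative summit lay there in 4 of the 8 genes, against 3.13% of all protein-coding genes. With either end counted, 5 of the 8 genes had a conservative summit, against 6.54% of all genes. Farther inside the gene, past the start window, cgh-1 alone of the 8 had conservative summits, against 2.74% of the genes long enough to have such a stretch.

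By pooled signal the strongest of the summits past a 3′ end belonged to pgl-1, the gene with the weaker start window of the PGL pair. By replicate mean it was the one at cgh-1, with 65.6 against 53.0 at pgl-1. The pgl-1 summit lay 144 bp past the 3′ end with a pooled signal of 109, above the 71.9 median of the conservative list. The signal was 39.5 in replicate 1 and 66.6 in replicate 2 (53.0 ± 19.1, SD, n = 2). At cgh-1 the summit lay 209 bp past the 3′ end with a pooled signal of 99.7 and values of 74.0 and 57.1 (65.6 ± 11.97, SD, n = 2). It was the only one of the 4 present in the thresholded lists of both single replicates. It lay within 200 bp of the noncoding RNA genes C07H6.15 and C07H6.17. The windows around these summits are chrIV:6974247-6974347 on the - strand for pgl-1 and chrIII:7495061-7495161 on the - strand for cgh-1, shown because they are the strongest peaks at any of the 8 genes.
pgl-1: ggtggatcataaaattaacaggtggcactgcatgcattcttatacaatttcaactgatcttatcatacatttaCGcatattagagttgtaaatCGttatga
cgh-1: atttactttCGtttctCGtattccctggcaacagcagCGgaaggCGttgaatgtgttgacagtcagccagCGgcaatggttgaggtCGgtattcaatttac

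The pgl-1 window downstream of the gene had a GC content of 32.7% and 2 CG dinucleotides, and the cgh-1 window 47.5% and 6. Neither held any of the 3 hexamers.

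At car-1 the summit lay 6 bp past the 3′ end, with a pooled signal of 95.3 and values of 36.6 in replicate 1 and 47.0 in replicate 2 (41.8 ± 7.36, SD, n = 2). At oma-2 it lay 147 bp past the 3′ end with a pooled signal of 58.4 (31.5 ± 9.10, SD, n = 2). That summit was also 50 bp upstream of the start of vars-1, a valyl-tRNA synthetase gene, and replicate 1's own list did not hold it. The summits at pgl-1, cgh-1 and car-1 fell in no other protein-coding gene's start window. Without replicate 2 the count of 4 became 1, cgh-1. Within cgh-1, the conservative summits lay 624 and 823 bp downstream of the start with pooled signals of 4.67 and 55.0, and both were matched to the same pair of replicate peaks (29.8 ± 4.63, SD, n = 2).

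**Figure D3:**
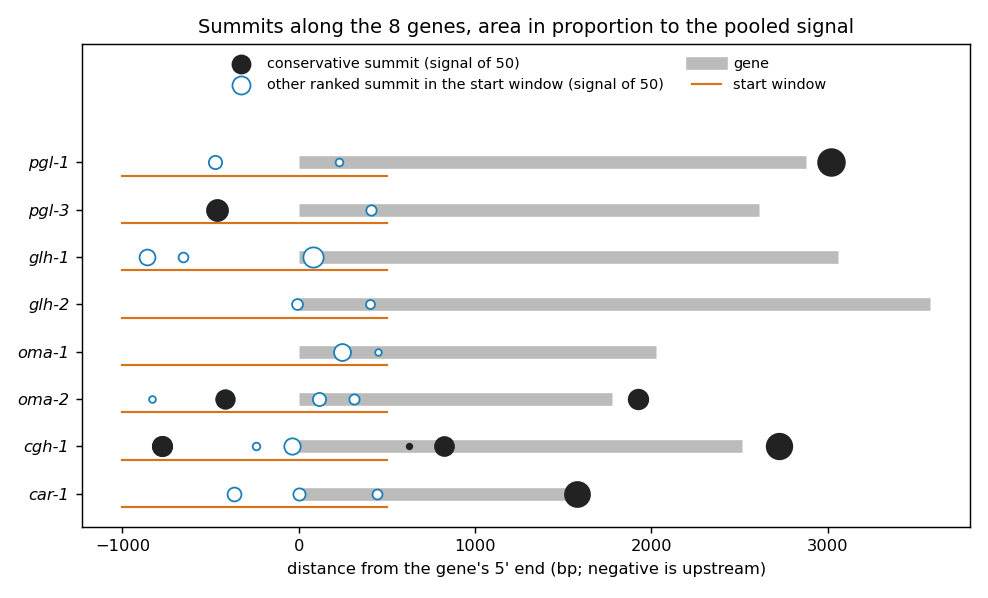
Summits along each gene in bp from its 5′ end, with filled circles for conservative summits at any position, open circles for other ranked summits in the start window, grey bars for the gene and orange lines for the start window, and circle area in proportion to the pooled signal. The largest circles lie past the 3′ ends of pgl-1 (109), cgh-1 (99.7) and car-1 (95.3).

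The further lists were read at the same end. A conservative summit within 500 bp past the 3′ end was present at 5 of the 22 germ granule genes, 2 of the 29 translation control genes and 5 of the 24 P body and mRNA decay genes, against 3.13% of all protein-coding genes. The germ granule genes were sepa-1, mip-1, prg-1, csr-1 and mut-16. The Argonaute gene prg-1 had the highest pooled signal of these, 117 (57.3 ± 5.46, SD, n = 2), at 100 bp past its 3′ end. The other Argonaute gene, csr-1, had 64.6 (31.3 ± 7.52, SD, n = 2). The translation control genes were puf-3 and puf-11, both of the Pumilio family, with 51.4 and 71.3. Among the decay genes ifet-1 had the highest pooled signal, 95.0 at 418 bp past its 3′ end (45.8 ± 10.6, SD, n = 2). The others by pooled signal were ntl-3 at 58.2, pab-1 at 57.5, ntl-2 at 23.4 and lsm-7 at 18.1. The replicate mean of lsm-7, 45.1 ± 18.2 (SD, n = 2), was close to that of ifet-1 and above the 29.9 of ntl-3 and the 30.4 of pab-1, so its last place holds for the pooled value alone. The ntl-2 summit, with a replicate mean of 28.4 ± 5.90 (SD, n = 2), also fell in the start window of paic-1.

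**Figure D4:**
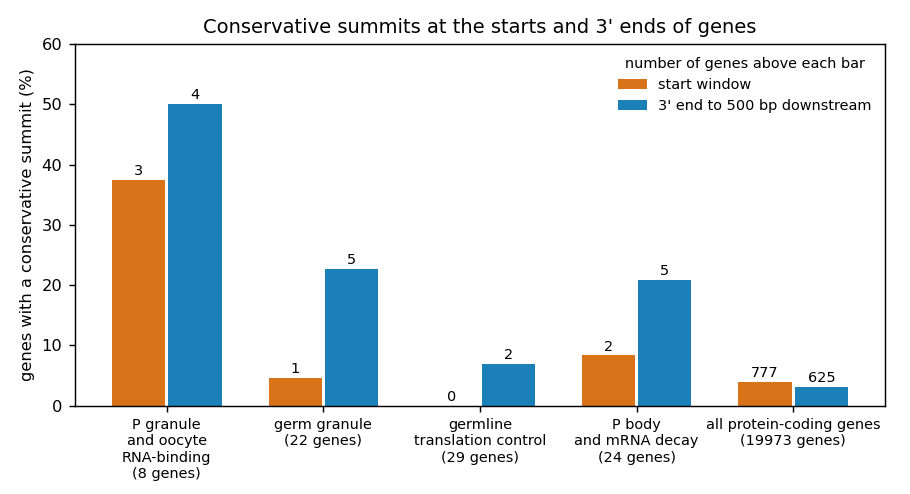
Share of genes with a conservative summit in the start window and from the 3′ end to 500 bp downstream, with the number of genes above each bar. The 8 genes have 3 and 4, the further lists have 1 and 5, 0 and 2, and 2 and 5, and all 19973 protein-coding genes have 777 and 625.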

How the data were processed

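ChIP-seq peak lists of 2 biological replicates, which the labels give as separate samples, were used as deposited, on ce11 coordinates, per the file headers; which aligner and peak caller made them is not stated in those headers or the labels. The deposited signal of each peak is the authors' value of peak strength, whose exact scale is not stated. The authors also give a score, which reaches 1000 and is at least 830 in the conservative list, and a −log10 of the IDR; thresholded lists start at a −log10 of 2, an IDR of 0.01. Read depth is unknown, so no counting intervals are given.

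Genes came from Ensembl release 115 (WBcel235; all peaks ended inside its chromosomes on 6 of 6). Python 3.11.15 assigned summits to start windows; planted summits in simulated data were recovered. No test was run, since 1 group allows none: counts stand beside the share of all protein-coding genes. The SD over 2 replicates covers the spread between these samples only.

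The 8 genes, the further lists and the hexamers were chosen with earlier results of these data known. Named genes were the 8 members, further-list genes with a conservative summit, the neighbours of members' summits and the gene nearest in replicate signals; pgl-2, glh-3, glh-4, spn-4 and the genes with summits past their 3′ ends were named after their values were seen. One listed gene, lsm-2, was not matched and was not used here. Alternatives were a narrower and a wider window, all transcript 5′ ends, the nearest start alone and overlap of the peak interval. Further ones were the other lists, stronger peaks only, each replicate alone and other stretches past the 3′ end.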

Additional observations from a re-analysis of the deposited data

How the results depend on the processing

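The count of 3 genes with a conservative start-window summit became 0 among peaks at or above the list's median signal, and ranged from 0 to 1 when either replicate was left out (0 without replicate 1, 1 without replicate 2, pgl-3). Fewer peaks are listed under each of these settings; the share of all genes then was 2.198%, 1.85% and 2.00%. The median pooled signal of 47.5 became 35.3 with a window of 500 bp upstream to 200 bp downstream, against 8.32 over all genes, and ranged from 21.1 to 25.8 in the single replicates, whose signals are lower throughout. The count of 7 genes above the median of all genes stayed between 6 and 8, but the genes below it varied: glh-2 in the reported setting, pgl-1 (9.10, against a median of 17.8 over all genes) with each summit given to the nearest start, and oma-1 in the narrower window. The count of 4 genes with a summit past the 3′ end ranged from 1 to 4 when either replicate was left out, and the 4 without replicate 1 were pgl-1, glh-1, cgh-1 and car-1. The share of all genes was then 1.52% without replicate 1 and 1.49% without replicate 2. The count was 3 within 200 bp, 4 within 1000 bp, 5 in the second list of both replicates and 3 when summits in any start window were left out. In that order the share of all genes was 1.67%, 3.95%, 3.22% and 1.80%. Of the single genes' values under other settings than leaving out a replicate, 34 were unchanged or moved by less than the replicate SD. The other 6 moved by more. No value was obtained for oma-1 in the narrower window, or for pgl-1 and glh-2 without replicate 2. The samples form 1 group, so no pairing of samples between conditions was possible.

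The main limits are 2 replicates, 1 group, no control analysed here and an unknown depth.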
